A study of Mus musculus with 2 samples.

Results

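Hedgehog receptors and Gli factors were examined in mouse embryonic stem cells (ESCs), as the rows of the deposited gene table whose symbol is Ptch1, Boc, Cdon, Hhip, Smo, Sufu, Gli1, Gli2 or Gli3. All 9 genes were found, each in 1 row, among 24532 genes. RNA-seq of polyadenylated RNA was available for 1 library of E14 cells, an established wild-type mouse ESC line, and 1 library of E14-Sox2TA/WT cells. The latter are a line grown from single E14 cells after CRISPR/Cas9 editing, in which 1 allele of the transcription factor Sox2 carries T258A, alanine in place of the threonine that can bear O-GlcNAc, while the other allele is wild type. Per the study's methods, E14 was cultured with serum and LIF, and the edited clones were selected and kept with 2i added (PD0325901, which inhibits Mek, and CHIR99021, which inhibits Gsk3), which was withdrawn before the experiments. Genotype, clonal origin and culture history cannot be told apart in these libraries, and no difference has a replicate check.

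In the Hedgehog pathway, a secreted ligand (Shh, Ihh or Dhh) binds Patched at the cell surface. Without ligand, Patched holds the membrane protein Smoothened inactive, and the zinc finger factors Gli2 and Gli3 are cut into repressors. With ligand, Smoothened acts at the primary cilium, Gli factors leave their inhibitor Sufu, and target genes are transcribed. Ptch1, Hhip and Gli1 are textbook targets of the pathway that feed back on it, and Gli1 transcription is widely used as its readout. The pathway is best known for patterning the neural tube and limb, whereas undifferentiated ESCs are not usually described as dependent on it.

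The 9 genes lie on 8 chromosomes of mouse build GRCm38 (mm10), given here with RefSeq positions. Ptch1 (63508328 to 63573460) and Gli3 (15463723 to 15730026) are both on chromosome 13. Gli2 is on chromosome 1 (118834061 to 119054405), Gli1 on chromosome 10 (127329882 to 127341579), Smo on chromosome 6 (29735497 to 29761366) and Sufu on chromosome 19 (46396896 to 46488804). Boc is on chromosome 16 (44485045 to 44558870), Cdon on chromosome 9 (35421528 to 35507652) and Hhip on chromosome 8 (79965850 to 80058060). A RefSeq promoter window, from 250 bases before to 50 bases after an annotated start, was listed for 7 of the 9 genes, all but Gli1 and Boc. The windows of Ptch1, Gli2 and Cdon lie inside the span of the gene given above, at a start within it, and so not upstream of the whole gene. The 250 bases before the start are shown for Ptch1 and Gli3, the listed genes with the highest ratios between the libraries, and for Gli2, whose window holds a Gli core motif. They are written from 5′ to 3′ on the strand of the gene. Capitals mark the core motif ACCACCC, here as its reverse complement GGGTGGT.
Ptch1, minus strand, chr13:63565736-63565985: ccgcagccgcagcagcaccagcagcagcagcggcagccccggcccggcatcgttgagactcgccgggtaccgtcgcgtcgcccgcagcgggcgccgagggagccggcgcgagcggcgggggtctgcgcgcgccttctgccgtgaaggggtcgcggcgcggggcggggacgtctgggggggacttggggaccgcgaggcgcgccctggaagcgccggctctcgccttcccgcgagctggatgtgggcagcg
Gli3, plus strand, chr13:15463473-15463722: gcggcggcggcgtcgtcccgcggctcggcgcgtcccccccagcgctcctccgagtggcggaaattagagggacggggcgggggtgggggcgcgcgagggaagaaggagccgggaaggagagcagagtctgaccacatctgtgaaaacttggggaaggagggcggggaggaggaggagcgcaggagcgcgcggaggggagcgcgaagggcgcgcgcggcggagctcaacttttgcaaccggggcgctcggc
Gli2, minus strand, chr1:119053620-119053869: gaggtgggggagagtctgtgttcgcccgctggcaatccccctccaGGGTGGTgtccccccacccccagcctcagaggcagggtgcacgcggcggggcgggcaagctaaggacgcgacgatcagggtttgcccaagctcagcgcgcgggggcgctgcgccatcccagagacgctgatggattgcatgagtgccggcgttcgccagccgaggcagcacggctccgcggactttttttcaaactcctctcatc

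The full Gli consensus GACCACCCA, searched on both strands, was in none of the 7 windows and in 0.253% of the 32851 windows of all genes. Its core ACCACCC, which is part of the consensus, was in the Gli2 window alone and in 4.61% of all windows. The Sox motif CATTGTT (3.78% of all windows) and its core CATTGT (12.6%) were in none of the 7. These matches say only whether the letters are present in the windows. The Ptch1 window held 47 CpG dinucleotides and that of Gli3 held 39, against a median of 7 over all windows, while that of Cdon held 3.

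The E14 library held 60263536 counted reads and the E14-Sox2TA/WT library 44609228. Levels are given as deposited TPM, which accounts for transcript length and library size, and the log2 ratio is that of TPM in E14-Sox2TA/WT over E14 cells without a pseudocount. Its 95% interval (exact Clopper-Pearson) comes from the read counts and covers counting error only. Genes that reached a TPM of 10 in either library, the filter of the study, are called expressed here (9094 genes), and genes whose TPM averaged 1 or more over both libraries are called detected (13269 genes). Sox2 had a TPM of 372.5 in E14 and 274.2 in E14-Sox2TA/WT cells (28936 and 14270 reads), and the table does not show which allele was read. All 10 ESC markers examined were expressed, from Klf4 (TPM 158 and 104) to Dppa5a (6877 and 4429). Of these markers, 7 were lower and 3 higher in E14-Sox2TA/WT cells, with a median log2 ratio of -0.39. Only 1 of them, Nanog, was more than 2-fold lower, beside 4.07% of all expressed genes.

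Within this set, the receptor Ptch1 and the factors Gli1 and Gli3 were more than 2-fold higher in E14-Sox2TA/WT cells, Smo, Gli2 and Sufu were higher by less, Cdon was nearly level, and Boc and Hhip were lower. Ptch1 (Entrez gene 19206), which encodes the ligand receptor, had 2864 reads in E14 and 5094 reads in E14-Sox2TA/WT cells, or a TPM of 12.4 and 33.04. The log2 ratio of Ptch1 was 1.41 (95% interval 1.34 to 1.48), a 2.66-fold higher TPM. Of the expressed genes, 1.53% had a ratio as high. The sample is a bulk culture, so more cells with a transcript and more transcript per cell cannot be told apart for this or any other gene.

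The co-receptors Boc and Cdon, related immunoglobulin-type membrane proteins that bind ligand together with Patched, differed from each other. Boc had 751 reads in E14 and 188 in E14-Sox2TA/WT cells, or a TPM of 5.38 and 2.004. The log2 ratio of Boc was -1.42 (-1.66 to -1.19), a 2.685-fold lower TPM, and 4.45% of detected genes had a ratio as low. Cdon had 1628 and 1065 reads, or a TPM of 7.16 and 6.99, with a log2 ratio of -0.03 (-0.15 to 0.08), so no difference was detectable on the TPM scale. The interval of Cdon was not wide enough to include a 2-fold change, and its ratio reached -0.34 after correction for GC content and length. The summed TPM of both co-receptors was 12.5 in E14 and 8.998 in E14-Sox2TA/WT cells.

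Hhip encodes a membrane protein that binds Hedgehog ligands and limits their range. Its level was low, with 103 reads in E14 and 14 in E14-Sox2TA/WT cells, or a TPM of 0.357 and 0.0726. The log2 ratio was -2.30 with an interval of -3.22 to -1.49. The size of this ratio depended on the pseudocount, with -0.34 on the log2(TPM + 1) scale, and the gene was neither expressed nor detected in the sense above. Ptch1 and Hhip, both textbook targets of the pathway, thus differed in opposite directions between the libraries, the latter at a level of few reads.

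**Figure D1:**
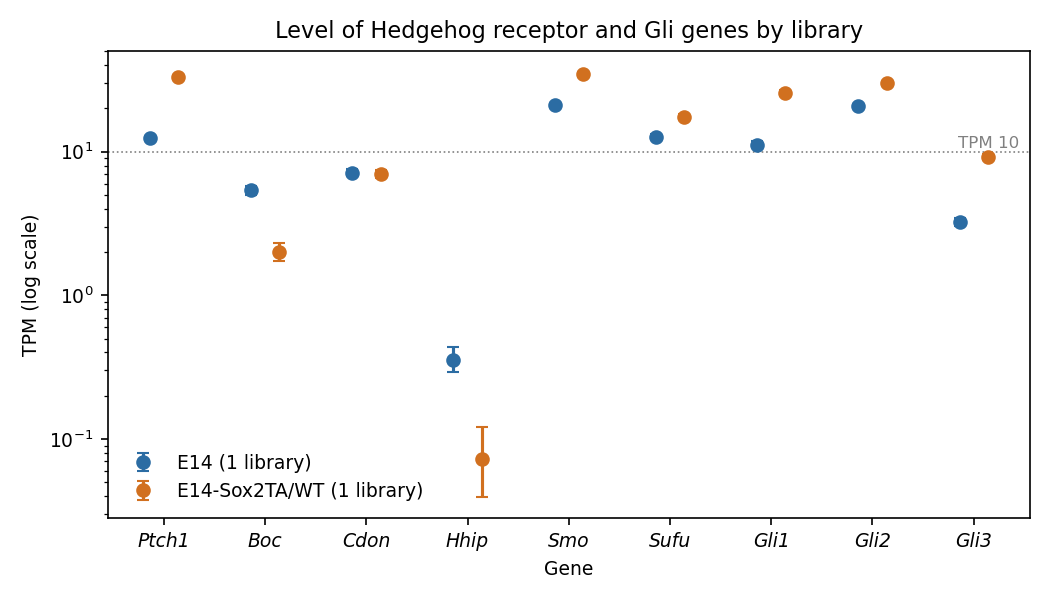
TPM (log axis) of the 9 genes in the E14 library (blue) and the E14-Sox2TA/WT library (orange), with exact Poisson 95% intervals from the read counts (counting error only), which are smaller than the points for most genes. Ptch1, Gli1 and Gli3 stand visibly higher in E14-Sox2TA/WT cells, Boc and Hhip stand lower, and the Cdon points lie at 7.16 and 6.99.

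Smo, the signal transducer that Patched restrains, had 2644 reads in E14 and 2906 in E14-Sox2TA/WT cells, or a TPM of 21.1 and 34.6. Its log2 ratio was 0.71 (0.64 to 0.79), short of 2-fold, and 9.41% of expressed genes had a ratio as high. Sufu, which binds Gli proteins in the cytoplasm and keeps them inactive, had 1819 and 1672 reads, or a TPM of 12.8 and 17.5. Its log2 ratio was 0.46 (0.36 to 0.55), and 20.7% of expressed genes reached this value. The ratios of Smo and Sufu therefore lay above the median of these genes, 0.08, but within the range of many of them.

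All 3 Gli genes were higher in E14-Sox2TA/WT cells, by different amounts. Gli1, the activator whose transcription follows pathway activity, had 1287 reads in E14 and 1985 in E14-Sox2TA/WT cells, or a TPM of 11.2 and 25.7. The log2 ratio of Gli1 was 1.203 (1.10 to 1.30), a 2.30-fold higher TPM, and 2.62% of expressed genes had a ratio as high. Gli3, which acts mainly as a repressor, had 862 and 1641 reads, or a TPM of 3.25 and 9.22. The log2 ratio of Gli3 was 1.51 (1.39 to 1.63), a 2.84-fold higher TPM and the highest of the 9 genes under this scale, but the gene stayed under a TPM of 10 in both libraries. Of the detected genes, 2.40% had a ratio as high as that of Gli3. Gli2, the main activator of the first response to ligand, had the highest Gli level in both libraries, with 4431 and 4247 reads, or a TPM of 20.97 and 29.99. The log2 ratio of Gli2 was 0.52 (0.46 to 0.58), and 17.4% of expressed genes reached it.

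Summed over the 3 genes, Gli TPM was 35.4 in E14 and 64.9 in E14-Sox2TA/WT cells, a log2 ratio of 0.88. Gli2 made up 59.3% of this sum in E14 and 46.2% in E14-Sox2TA/WT cells. The share of Gli1 was 31.5% and 39.6%, and that of Gli3 was 9.18% and 14.2%.

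**Figure D2:**
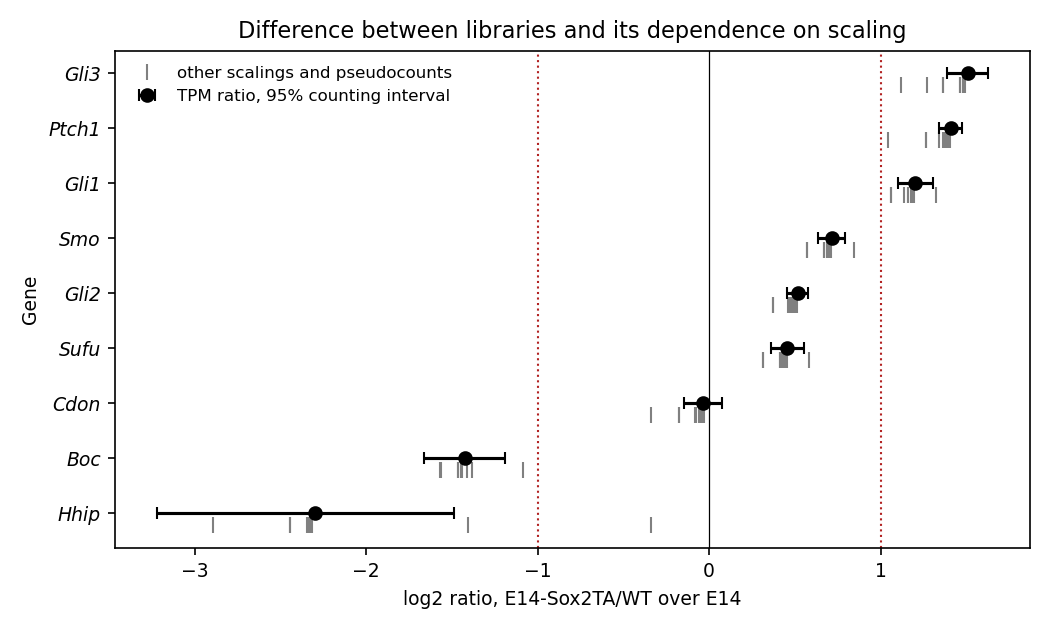
Log2 ratio of E14-Sox2TA/WT over E14 for each gene, with black points for the TPM ratio, horizontal bars for its 95% counting interval and grey ticks for the other scalings, pseudocounts and the trend correction. Gli3, Ptch1 and Gli1 lie above 1 and Boc lies below -1 (dotted lines, 2-fold) under every setting drawn, whereas Hhip spans -2.89 to -0.34.

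Of the 9 genes, 5 were expressed (Ptch1, Smo, Sufu, Gli1 and Gli2). Of these, 2 were more than 2-fold higher (Ptch1 and Gli1), against 4.17% of all expressed genes, and 0 were more than 2-fold lower, against 4.07%. All but Hhip, 8 genes, were detected. Then 3 were more than 2-fold higher (Ptch1, Gli1 and Gli3), against 5.86% of all detected genes, and 1 was more than 2-fold lower (Boc), against 8.44%. Large ratios were more common among genes of low level, to which Gli3, Boc and Cdon belong. Of the 4175 genes that were detected but not expressed, 9.53% were more than 2-fold higher and 18.0% more than 2-fold lower. The median log2 ratio of the 8 genes was 0.62, beside 0.04 for all detected genes, and 6 of the 8 were higher, beside 7053 of 13269.

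The choice of scale moved the values but not these calls. The FPKM ratio shifted the median of all genes by the largest amount, from 0.04 to -0.10, and the ratios then were 1.27 for Ptch1, 1.06 for Gli1, 1.36 for Gli3 and -1.57 for Boc. After correction for GC content and length, Ptch1 had 1.04, Gli3 1.12, Gli1 1.32 and Boc -1.41. The same 3 genes were past 2-fold in the higher direction, and Boc in the lower, under all 10 scales and pseudocounts. Most of these scales shift all ratios by nearly the same amount, so they are a weak check of the calls. The counting interval of these ratios was computed on the TPM scale only.

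**Figure D3:**
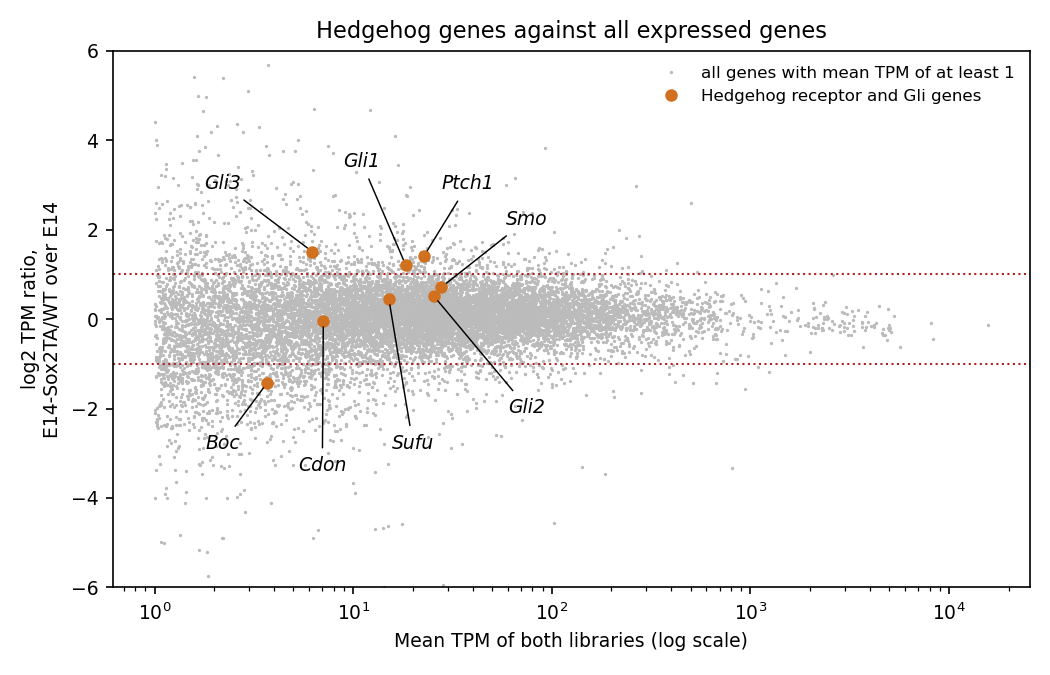
Log2 TPM ratio against mean TPM (log axis) for detected genes (grey) and the 8 Hedgehog genes among them (orange), with dotted lines at 2-fold; 11 genes beyond the axis and 21 at TPM 0 in 1 library are not drawn. Ptch1 and Gli1 lie above the bulk of genes at their level, Gli3 and Boc lie where the grey points spread widely, and Smo, Gli2, Sufu and Cdon lie within the bulk.

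The order of levels, which rests on TPM within 1 library, differed between the genotypes. In E14 it was Smo, Gli2, Sufu, Ptch1, Gli1, Cdon, Boc, Gli3 and Hhip, and neither Smo and Gli2 nor Sufu and Ptch1 were separated by their Poisson intervals. In E14-Sox2TA/WT cells it was Smo, Ptch1, Gli2, Gli1, Sufu, Gli3, Cdon, Boc and Hhip, and Smo (33.4 to 35.9) and Ptch1 (32.1 to 34.0) were not separated. Ptch1 had moved from the fourth to the second place and Gli3 from the eighth to the sixth.

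Ratios of 1 gene to another within a library do not depend on the library totals, and their change was taken from the read counts with an exact conditional interval. Ptch1 had 0.590 times the TPM of Smo in E14 and 0.954 times in E14-Sox2TA/WT cells, a log2 change of 0.69 (0.59 to 0.80). Gli1 had 0.532 and 0.856 times the TPM of Gli2, a change of 0.69 (0.57 to 0.81), and Gli3 had 0.155 and 0.308 times, a change of 0.99 (0.86 to 1.13). These changes relative to Smo and Gli2 were larger than counting error. After correction for GC content and length, in which the genes differ, they were 0.20 for Ptch1 over Smo, 0.86 for Gli1 over Gli2 and 0.66 for Gli3 over Gli2. Each of these lay outside its counting interval, so the size of every change depended on the correction, most for Ptch1 over Smo. Boc had 0.751 and 0.287 times the TPM of Cdon, a change of -1.39 (-1.65 to -1.13), or -1.07 after the correction. Sufu changed little relative to Gli2 (0.608 and 0.583 times, change -0.06, interval -0.17 to 0.05, or 0.12 after the correction), as did Ptch1 relative to Gli3 (3.83 and 3.58 times, change -0.10, interval -0.24 to 0.04, or -0.08 after the correction).

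Reads shared with other genes were checked in the GENCODE M21 annotation, since the treatment of strand in counting is not given in the sources used here. No exon of Ptch1, Boc, Cdon, Smo, Sufu or Gli2 overlapped an exon of another gene. Exons of Gli1 shared 62 bases with Arhgap9 on the opposite strand, which had 187 reads in E14 and 146 in E14-Sox2TA/WT cells, and 265 bases with Gm47200. Exons of Gli3 shared 188 bases with Gm6556 and those of Hhip 175 bases with Gm27820, also on the opposite strand. Of the sequences of 31 bases in each transcript, 4.16% of those in Smo occurred in a transcript of a gene outside this set. None of the other 8 genes had any such sequence. The search read each transcript on its own strand only, so it does not cover the opposite-strand overlaps of Gli1, Gli3 and Hhip. Sequences shared among the members of the set, such as between the Gli genes, were not searched.

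The other genes of the pathway were grouped by role into 6 lists written from general knowledge. Over the 143 further genes, 82 were expressed, of which 6 (7.32%) were more than 2-fold higher and 3 (3.66%) more than 2-fold lower, beside 4.17% and 4.07% of all expressed genes. The lower share was thus near that of all genes. The 117 detected ones among the 143 had a median log2 ratio of -0.008, beside 0.04 for all detected genes. Of these 117, 8 were more than 2-fold higher and 5 more than 2-fold lower, beside 5.86% and 8.44% of all detected genes. Ligand transcripts were scarce in both libraries. Shh had 0 reads in either, which allows up to 3 reads, or 0.0498 CPM in E14 and 0.0673 CPM in E14-Sox2TA/WT cells. Ihh had 36 and 20 reads and Dhh 80 and 44 reads, each with a TPM under 1. Disp1, which releases the lipid-bearing ligand, was nearly level (TPM 4.78 and 5.21, log2 ratio 0.13, interval -0.04 to 0.29). Scube2 and Scube3, secreted proteins that help ligand release, were lower. Scube3 had 1040 and 331 reads (TPM 11.1 and 5.25, log2 ratio -1.08, -1.26 to -0.90), and Scube2 had 178 and 45 reads (-1.43, -1.94 to -0.95).

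Of 7 other receptors and co-receptors, 4 were expressed, of which 2 were more than 2-fold higher, beside 4.17% of all expressed genes. Gpc4, a cell-surface glypican, had a TPM of 16.3 and 38.6 (log2 ratio 1.25, 1.14 to 1.35). Gas1, a further ligand-binding co-receptor, had a TPM of 1.81 and 3.43 (0.92, 0.64 to 1.22), and Lrp2 had 8.84 and 15.6 (0.82, 0.76 to 0.88). Gpc3, a glypican that competes with Patched for ligand, was nearly level (45.4 and 42.7, log2 ratio -0.09, -0.17 to -0.01).

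The 30 genes of signal relay and Gli processing were all detected. None passed 2-fold in either direction, beside 5.86% higher and 8.44% lower among all detected genes. Of the 30, 23 were expressed, and the shares among all expressed genes were 4.17% and 4.07%. The relay genes had a median log2 ratio of 0.22, or 0.08 with CPM, beside 0.04 and -0.10 for all detected genes. Of the 30, 22 were higher and 8 lower, beside 7053 and 6216 of 13269 detected genes. The highest were Cul1 (0.65, 0.60 to 0.70), a scaffold of the ubiquitin ligase that marks Gli proteins for processing, and Gpr161 (0.61, 0.37 to 0.85), a ciliary receptor that restrains the pathway. The lowest were Btrc (-0.57, -0.65 to -0.48), which recognises phosphorylated Gli in that ligase, and Gsk3a (-0.47, -0.52 to -0.42), a kinase of Gli proteins. Primary cilium genes were on the whole slightly lower, with a median of -0.17 over 63 genes and 45 of them lower, beside 6216 of 13269 genes in all. Of 44 expressed cilium genes, 2 were more than 2-fold lower, Ift22 (471 and 134 reads, -1.24, -1.53 to -0.96) and B9d2 (435 and 134 reads, -1.13, -1.42 to -0.84), and both intervals reached values short of 2-fold. These 2 genes are 4.55% of the expressed cilium genes, near the 4.07% of all expressed genes, and B9d2 was under 2-fold after correction for GC content and length, at -0.76. Kif17, a ciliary motor, was detected but not expressed (237 and 76 reads, -1.17, -1.56 to -0.79). The cilium genes with the highest ratios were Wdpcp (71 and 107 reads, 1.18, 0.73 to 1.63) and Mkks (0.85, 0.75 to 0.96).

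Among 26 textbook target genes, 8 were expressed and 3 of them were more than 2-fold higher, beside 4.17% of all expressed genes. Mycn and Bmp4 were among these 3. Mycn, a growth regulator, had a TPM of 45.5 and 118.2 (3719 and 6478 reads, log2 ratio 1.38, 1.32 to 1.44). Bmp4, a secreted signal, had 11.5 and 32.6 (746 and 1416 reads, 1.504, 1.37 to 1.63). Prdm1, a transcriptional repressor, was detected at a lower level (132 and 244 reads, TPM 0.800 and 2.21, log2 ratio 1.47, 1.16 to 1.78). The lowest of the 13 detected targets were Snai1 (-0.998, -1.30 to -0.71) and Nkx2-9 (-0.81, -1.22 to -0.41), and the median of the 13 was 0.46. Foxf1, Foxa2, Nkx2-2, Nkx6-1 and Olig2, targets in mesoderm, floor plate or ventral neural tube, had 43 reads or fewer in each library. Some of these targets, Mycn and Bmp4 among them, respond to many signals. The 8 Gli-related zinc finger factors share the Gli type of DNA-binding domain. Of these, 3 were expressed and 2 were more than 2-fold higher, beside 4.17% of all expressed genes. Glis2 was more than 2-fold higher (TPM 13.7 and 29.2, log2 ratio 1.09, 1.0002 to 1.19). Zic2 (0.76, 0.62 to 0.89) and Zic5 (0.53, 0.35 to 0.72) were higher by less. Glis1, not detected in the sense above, was lower (78 and 18 reads, -1.55, -2.38 to -0.80). With the FPKM ratio Glis2 was under 2-fold at 0.95.

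**Figure D4:**
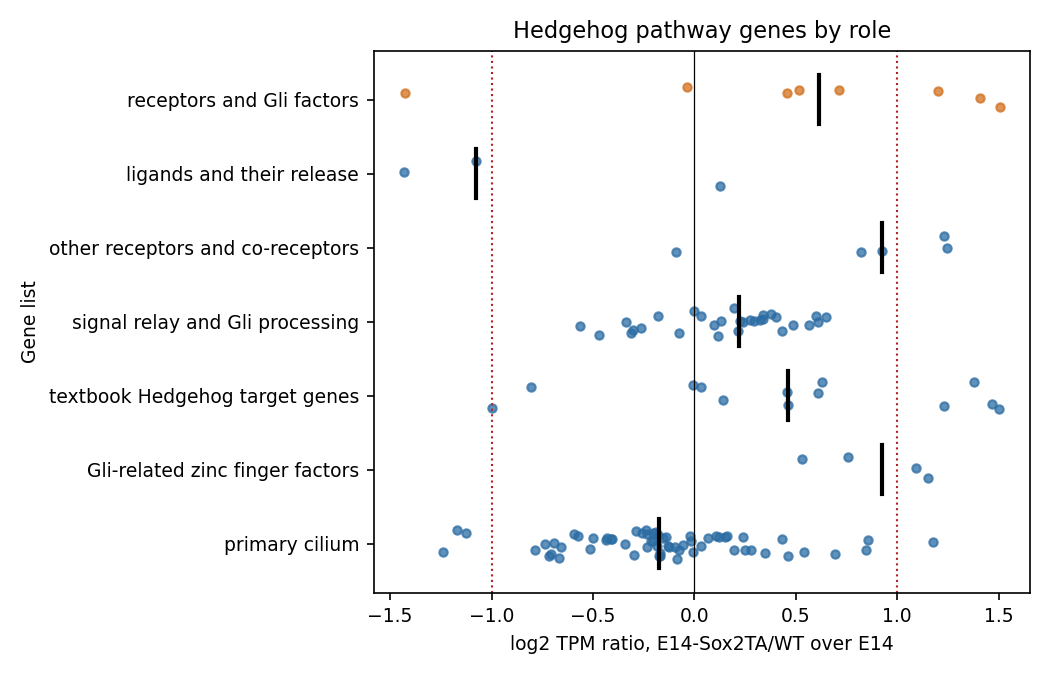
Log2 TPM ratio of the detected genes in each list, 1 point per gene, with black bars at list medians and dotted lines at 2-fold; the vertical scatter within a list carries no meaning. Other receptors and the Gli-related factors lie mostly to the right, relay genes lie near 0, and cilium genes centre slightly to the left.

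Markers of other cell types differed between the libraries as well. The counts past 2-fold below stand beside 5.86% higher and 8.44% lower among all detected genes. Among genes detected but not expressed, these shares were 9.53% and 18.0%. Of 8 primitive endoderm markers, 7 were detected and all 7 were lower in E14-Sox2TA/WT cells, 5 of them more than 2-fold, with a summed TPM of 74.8 in E14 and 36.0 in E14-Sox2TA/WT cells. Boc, Hhip and Scube3 were also lower, as were many other genes. With 1 library per genotype, a shared direction does not link genes to the endoderm markers. Of 8 neural progenitor markers, 3 were detected and all 3 (Nes, Sox1 and Pax6) were more than 2-fold higher, with a summed TPM of 11.7 and 49.9, while Pax3, Pax7, Neurog2 and Fabp7 had 37 reads or fewer in each library. The mesoderm list had a summed TPM of 8.06 and 23.7, with 2 of 4 detected markers more than 2-fold higher and 1, Tbx6, lower (-0.62, -1.08 to -0.18). Most of the difference in summed TPM was in T, without which the sums were 7.10 and 9.66. The trophoblast list had a summed TPM of 114.8 and 190.3, but without Krt8 the sums were 60.9 and 34.3, in the opposite order. Of its 5 detected markers, Cdx2 and Krt8 were more than 2-fold higher and Tfap2c and Ascl2 more than 2-fold lower, and Elf5 and Prl3d1 had 0 reads. For feeder fibroblasts the summed TPM was 59.95 and 36.8, but 19.9 and 25.4 without Thy1. Of 5 detected fibroblast markers 3 were higher and 2 lower, with a median log2 ratio of 0.15. Thy1 and Pdgfrb were more than 2-fold lower and Col5a1 was higher (0.82), as were the less abundant Col1a2 (43 and 109 reads) and Col3a1 (15 and 151 reads), while Dcn, Lum and Postn had 0 reads in both libraries. The part of these cell types in the values of the Hedgehog genes was not tested.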

How the data were processed

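Polyadenylated RNA from E14 and E14-Sox2TA/WT cells, 1 library each, was sequenced by the authors on an Illumina NovaSeq instrument. Read counts, FPKM and TPM per gene were deposited for build mm10. The counts deposited by the authors are raw whole numbers, the deposited FPKM is scaled per kilobase and to library size, and the deposited TPM is scaled to a sum of 993247 in E14 and 994155 in E14-Sox2TA/WT cells. The submitters' processing notes name bcl2fastq 2.20.0, Trimmomatic, HISAT2 2.1.0 and StringTie 2.1.3b, without their settings, and the handling of strand and of reads with several positions is not given in the sources used here. The log2 shift between TPM and FPKM ratios was 0.14, and no Hedgehog gene departed by over 1% from the constant ratio of TPM to FPKM.

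Ratios, Clopper-Pearson and Poisson intervals, and conditional intervals of count ratios were computed with scipy 1.17.1. Of these, only the ratios and their Clopper-Pearson intervals were tested on simulated data. PCR copies of 1 molecule are counted as separate reads, so all of the intervals named and the floor of 3 reads describe counting error alone. No p-value is given, because each genotype had 1 library. Alternatives were TMM scaling (edgeR 4.0.16), median-of-ratios size factors (DESeq2 1.42.0), CPM, FPKM, centring on the median, pseudocounts of 0.1 and 1, removal of the 10 highest genes, a trend on GC content and length in 20 bins each (GENCODE M21, 98.98% of examined genes matched), other filters and other thresholds. The genes named were all 9 members and, of each other pathway list, those past 2-fold with a TPM of at least 10 and the highest and lowest 2 with a mean TPM of at least 1. Some genes that are counted in the lists are not reported here by name. Other genes were named after their values were seen. The members and lists were chosen with earlier results of these data known. The study's own pathway analysis of the same comparison placed sonic hedgehog signaling among the most altered pathways. The counts of Hedgehog genes past 2-fold given here are therefore not independent of that result. Genes alike in pattern were not sought, because 2 libraries give 1 difference per gene. No protein sequence was used here.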

Additional observations from a re-analysis of the deposited data

How the results depend on the processing

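The calls for Ptch1, Gli1, Gli3 and Boc were the same under all 10 scales and pseudocounts. So was the sign of the ratio of each of the 9 genes. The counts of 2 higher and 0 lower genes (TPM of at least 10) and of 3 higher and 1 lower (mean TPM of at least 1) thus held there. These counts also held with the counting interval wholly past 2-fold, computed on the TPM scale only. A threshold of 3-fold left 0 higher genes under either filter and 0 lower with a mean TPM of at least 1, and without a filter there were 2 lower, Boc and Hhip. A TPM of at least 5 gave 1 lower gene and a TPM of at least 20 gave 0, which follows from the genes each filter admits. The median of the genes (0.62) was 0.47 with CPM, 0.47 with FPKM, 0.71 with the GC and length trend removed, 0.96 at a TPM of at least 20 and 0.52 without a filter. Of the 143 other pathway genes, 6 were higher and 3 lower; these became 10 and 13 without a filter, 14 and 8 at 1.5-fold, and 0 and 0 at 3-fold, while 0 were lower at a TPM of at least 20 or with the counting interval wholly past 2-fold. The correction of ratios between genes and the marker sums without 1 gene were alternatives added after seeing the data. After correction for GC content and length, the change of Gli1 over Gli3 reversed from -0.30 to 0.20 and that of Ptch1 over Gli1 from 0.21 to -0.28. With a pseudocount of 1, Scube2 (-0.70), Kif17 (-0.70), Wdpcp (0.68) and Prdm1 (0.84) were under 2-fold. The core of the Gli motif was found in 1 window and the full consensus in 0. Counting error limits Hhip, with 14 reads in E14-Sox2TA/WT cells. No gene of ligand release reached a TPM of 20, so that filter gave no median for this list. No paired analysis was possible because each genotype had 1 library, and for the same reason no library could be left out.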

Other observations

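The 3 Scube genes, which encode secreted proteins of ligand release, were all lower in E14-Sox2TA/WT cells. Scube1 had 238 and 53 reads and a TPM of 0.951 and 0.314, with a log2 ratio of -1.60 (95% counting interval -2.06 to -1.17), beside Scube2 at -1.43 and Scube3 at -1.08. Scube1 and Scube2 had a TPM under 2 in both libraries. Scube3 fell under 2-fold with a pseudocount of 1, at -0.95.

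Several low target genes were read in 1 library alone. Nkx2-2, a factor of the ventral neural tube, had 0 reads in E14 and 10 in E14-Sox2TA/WT cells. Its CPM, not TPM, was 4.503-fold higher when E14 is set to 3 reads. Foxl1 had 10 reads and 0, and Olig2 had 7 and 0. With E14-Sox2TA/WT set to 3 reads, their CPM was 2.47-fold and 1.73-fold lower. These folds leave out the counting error of the 10 or 7 reads, so they are not lower limits. Other targets had reads in both libraries but a mean TPM under 1. Foxc2, a forkhead factor, had 87 and 8 reads and a TPM of 1.01 and 0.137 (log2 ratio -2.89, -4.14 to -1.84). Foxf2 (37 and 10 reads, -1.28, -2.45 to -0.24) and Tbx2 (29 and 8 reads, -1.34, -2.68 to -0.18) were also lower. Bcl2, an inhibitor of cell death, had 41 and 121 reads and a TPM of 0.229 and 1.21 (log2 ratio 2.40, 1.88 to 2.95). These genes were named after their values were seen.

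Each gene was also set beside the median log2 ratio of the detected genes on its chromosome. Ptch1 and Gli3 share chromosome 13, with a median of 0.12 over 496 genes. Chromosome 10, with Gli1, had a median of 0.04 (629 genes), and chromosome 16, with Boc, had 0.12 (394 genes). Chromosome 8, with Hhip, had 0.26 (723 genes), opposite in sign to the ratio of Hhip. The ratios of Ptch1, Gli1 and Gli3 were thus more than 1 log2 unit above the medians of their chromosomes. Copy number at the genes themselves was not tested.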
